A study of Homo sapiens with 6 samples.

Results

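The genes described here are 53 members of the WNT pathway: 19 WNT ligands, 12 receptors and co-receptors, 8 genes of the R-spondin axis, 10 secreted inhibitors and 4 intracellular feedback and target genes. They were chosen by name, from what each gene product does, with earlier results of these data known. Each matched 1 of the 60107 Ensembl gene IDs in the raw count table. RNA was read in 6 libraries from H9, a long-established line of human embryonic stem cells, at day 9 of a directed differentiation to nephron progenitor cells. In 3 libraries the cells had grown in complete medium with glutamine, and in 3 the medium had lacked glutamine from day 0 on. The labels give no other difference between the groups and do not say that the replicates were separate cultures, so p-values measure the spread between these libraries only.

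WNT ligands are secreted lipid-modified proteins that bind a frizzled receptor together with the co-receptor LRP5 or LRP6. Binding stops the destruction complex from degrading beta-catenin, which then acts with TCF and LEF proteins on target genes such as AXIN2, NKD1 and NOTUM, several of which dampen the pathway in turn. R-spondins strengthen the signal: through LGR receptors they remove ZNRF3 and RNF43, ligases that clear frizzleds from the cell surface. In the embryonic kidney WNT9B from the ureteric bud acts on nephron progenitors, and WNT4 in those progenitors drives their change into epithelium. The protocol cited in the labels begins with a chemical inhibitor of the kinase GSK3, which itself stabilises beta-catenin.

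The libraries held 78220507 to 84746566 counts, and the 53 genes together took 0.196% to 0.226% of them. Replicate 1 with glutamine stood apart from replicates 2 and 3 of its group: among the 3059 tested genes whose mean log2 CPM (counts scaled to a common, TMM-adjusted library total) differed by at least 1 between those 2 libraries and the group without glutamine, it lay nearer the group without for 81.1%. The genes whose values are given by library are therefore described with that library and without it. It was singled out by its place in these same data, and leaving it out keeps 2 libraries in its group. Larger fold changes and smaller p-values without it follow in part from that choice. They describe the remaining libraries and are not separate evidence of a difference. The headings of the count table name days 0 and 9, while the labels place all libraries at day 9. Columns were assigned through the heading that each sample's description states, and every direction rests on that assignment.

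WT1, SALL1 and EYA1, markers of nephron progenitors and metanephric mesenchyme, were present in all 6 libraries. WT1 was at 225 to 376 CPM with glutamine and at 341 to 390.0 CPM without, SALL1 at 112 to 155 CPM and 145 to 169.6 CPM, and EYA1 at 164 to 222 CPM and 131 to 155 CPM. With glutamine SIX2, a defining marker, was at 6.57 CPM in replicate 1, 34.8 CPM in replicate 2 and 27.8 CPM in replicate 3, and without it at 7.27 to 9.70 CPM. Other markers differed in the same libraries as the WNT genes. The 4 intermediate mesoderm markers summed to 219.8 to 887 CPM with glutamine, where the highest value was replicate 1, and to 839 to 1248 CPM without. Of these OSR1 went the other way, at 16.4, 39.9 and 35.4 CPM in replicates 1, 2 and 3 with and at 16.4 to 17.3 CPM without. The 3 nephric duct markers summed to 8.90 to 79.3 CPM with, replicate 1 again the highest, and to 96.7 to 135 CPM without. EMX2 carried most of that difference, at 65.2, 3.76 and 3.79 CPM with and 84.9 to 122 CPM without. GATA3 was also higher without, while RET had overlapping groups, at 7.92, 3.84 and 2.55 CPM with and 3.61 to 4.11 CPM without. The 5 presomitic and somite markers summed to 60.7 to 194 CPM with, replicate 1 the lowest, and to 63.9 to 83.7 CPM without. The 3 endothelial markers summed to 26.1 to 85.2 CPM with and to 13.5 to 18.5 CPM without, with 3 of 3 lower and not overlapping. Over all genes tested, 16.9% were lower with no overlap. The same held for 2 endoderm and 2 neural markers, while 0 tested markers of those lists were higher with no overlap. The 3 stromal and smooth muscle markers summed to 60.8 to 103 CPM with and to 127 to 278 CPM without. That sum was mostly ACTA2, higher in every library without, and TAGLN, for which the groups overlapped. FOXD1 went the other way with no overlap, ranging from 0.776 to 2.97 CPM with and from 0.509 to 0.625 CPM without. Pluripotency markers stayed at or under 0.163 CPM in sum, the 4 neural markers summed to 15.0 to 27.3 CPM and the 3 endoderm markers to 0.430 to 2.28 CPM over the 6 libraries, and the 4 primitive streak markers to 2.43 to 7.97 CPM, with NKX1-2 at 0 in every library and NANOG and FOXA2 at 0 in the libraries with glutamine. Replicate 1 was the lowest library with glutamine for the endothelial and the stromal lists. The part of these cell populations in the WNT results was not tested, and fewer cells of a type cannot be told apart from less RNA per cell.

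The 250 bases before the RefSeq start (GRCh38.p14) are shown for 4 members on which the results below turn: WNT4, the ligand above 1 CPM that differed most between libraries, RSPO3, the most abundant R-spondin, SFRP2, the inhibitor with the highest mean level per kilobase without glutamine, and DKK1, an inhibitor for which replicate 1 lay far from its group. Capitals mark the letters CTTTGAT or CTTTGAA on either strand, the core read by TCF and LEF proteins, and bases in lower case are the rest.
WNT4 (chr1:22143098-22143347, minus strand): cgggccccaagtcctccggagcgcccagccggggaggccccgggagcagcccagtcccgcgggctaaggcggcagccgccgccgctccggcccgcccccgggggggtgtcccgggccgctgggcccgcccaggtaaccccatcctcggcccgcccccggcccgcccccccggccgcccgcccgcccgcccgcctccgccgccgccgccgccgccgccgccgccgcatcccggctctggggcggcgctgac
RSPO3 (chr6:127118421-127118670, plus strand): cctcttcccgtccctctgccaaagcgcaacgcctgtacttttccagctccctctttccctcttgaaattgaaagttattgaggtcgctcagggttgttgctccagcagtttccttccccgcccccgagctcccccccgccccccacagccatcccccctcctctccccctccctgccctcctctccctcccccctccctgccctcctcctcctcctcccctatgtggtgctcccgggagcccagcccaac
SFRP2 (chr4:153789084-153789333, minus strand): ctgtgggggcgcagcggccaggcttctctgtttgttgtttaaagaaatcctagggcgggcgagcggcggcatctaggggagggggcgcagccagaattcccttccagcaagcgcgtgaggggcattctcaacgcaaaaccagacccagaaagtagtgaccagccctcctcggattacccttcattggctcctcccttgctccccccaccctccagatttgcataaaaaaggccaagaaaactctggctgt
DKK1 (chr10:52314031-52314280, plus strand): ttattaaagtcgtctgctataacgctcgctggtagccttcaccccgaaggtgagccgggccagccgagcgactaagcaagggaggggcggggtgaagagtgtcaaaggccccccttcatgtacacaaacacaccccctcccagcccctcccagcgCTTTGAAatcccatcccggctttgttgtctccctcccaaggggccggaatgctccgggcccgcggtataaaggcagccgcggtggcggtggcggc
The RefSeq table held 39 such windows for 34 of the 53 members, and 1 of the 39, that of DKK1, held the letters, 2.56% against 5.94% of 35116 windows of the same length over all genes. In DKK1 the match began 95 bases before the start. The WNT4 window was 86.8% G or C with 40 CG pairs, while those of SFRP2, DKK1 and RSPO3 were 57.6%, 62.8% and 64.8% G or C with 11, 18 and 8 CG pairs. These letters describe the windows and say nothing of binding.

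Withholding glutamine is the 1 contrast of the study, and the question here is which WNT genes differ across it. Without glutamine the levels of WNT2B, WNT5B, FZD1, FZD5, FZD8, FZD10 and SFRP2 were higher and that of RSPO3 was lower, each with no overlap between the groups. WNT4, LGR5, DKK1 and NKD1 differed by more when replicate 1 with glutamine was left out than with all 6 libraries, and that library lay with or near the group without for these genes. The fold changes of the genes named before them also grew when it was left out. The transcripts of beta-catenin, its destruction complex and the dominant ligand WNT5A lay close together in both groups. With edgeR's quasi-likelihood test on all 6 libraries, 0 of the 45 members tested had a Benjamini-Hochberg adjusted p under 0.05, where 0.00442% of all 22613 genes tested did, 1 gene in all. At an unadjusted p under 0.05 there were 21 members, 14 higher and 7 lower, beside 29.7% of all genes. The smallest adjusted p of a member from edgeR was 0.068. DESeq2 on the same libraries called 12 of the 44 members to which it gave an adjusted p, 9 higher and 3 lower, or 27.3%. It called 13.7% of all genes, 7.38% higher and 6.3% lower. When replicate 1 with glutamine was left out, 32 of 46 members were called by edgeR, 20 higher and 12 lower, or 69.6%. That fit called 41.3% of all genes, 22.3% higher and 19% lower, and parted the groups for 36 members and for 63.3% of all genes, 32.3% higher and 31.1% lower.

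With all 6 libraries, 19 of the 45 members, or 42.2%, had no overlap between groups, 15 higher and 4 lower, against 34.2% of all genes tested, of which 17.3% were higher and 16.9% lower. The median log2 fold change over the 45 members was 0.30, and over all genes tested it was 0.001. The median over the members was 0.047 when replicate 1 of the group without glutamine was left out. The other 8 members, WNT6, WNT7A, WNT9B, WNT10A, RSPO2, DKK4, SFRP5 and ZNRF3, were under the count filter of that test. Of the 53 members, 37 reached a mean of 1 CPM in at least 1 group, and 18 of these either separated the groups or had an absolute log2 fold change of 1 or more. Their values by library are plotted next.

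**Figure D1:**
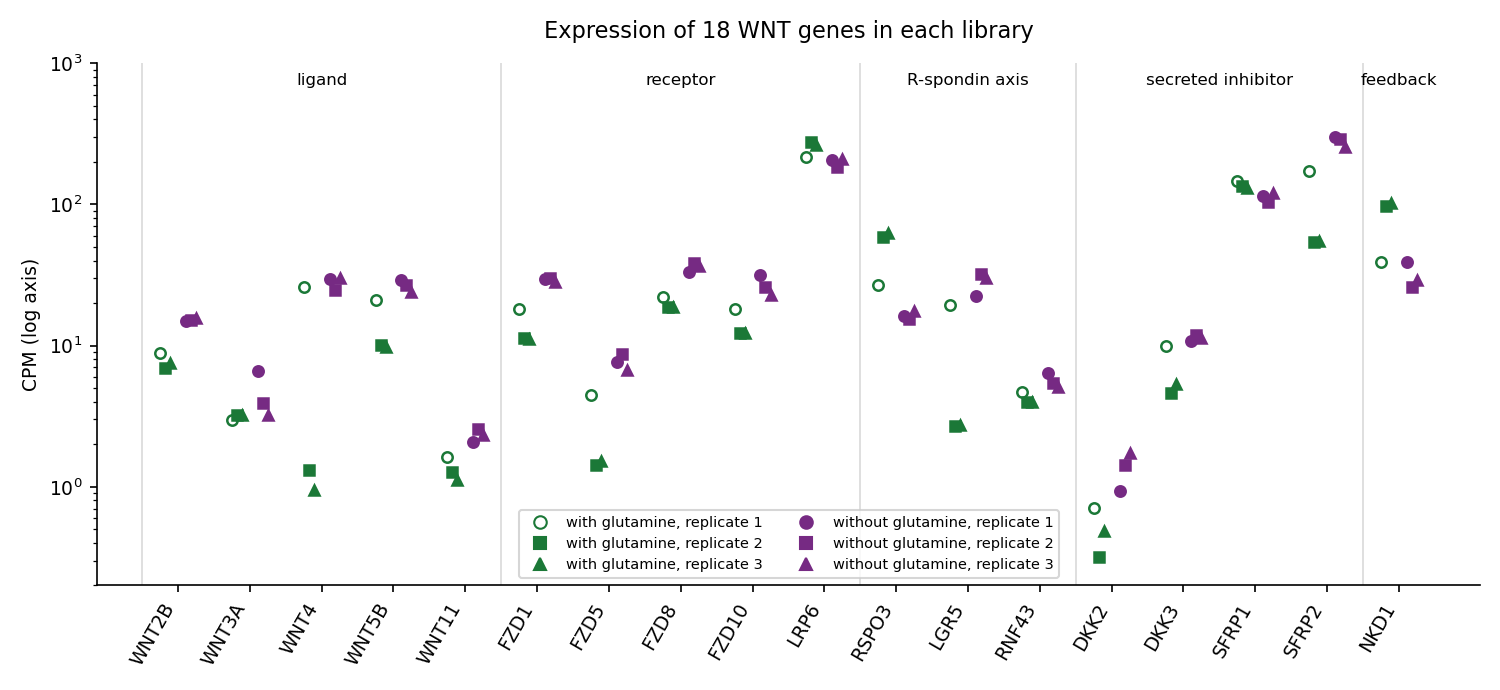
CPM on a log axis of the 18 WNT members with a mean of at least 1 CPM and either no overlap between the groups or an absolute log2 fold change of at least 1, in order of their role. Green points are the 3 libraries with glutamine (open circle, replicate 1) and purple points the 3 without. For WNT4 the open circle sits at 26.0 CPM, among the purple points, while the other green points are at 1.31 and 0.942 CPM.

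Among the ligands above 1 CPM, WNT4 varied most. It is the WNT that nephron progenitors make as they turn into epithelium. WNT4 (ENSG00000162552) measured 26.0, 1.31 and 0.942 CPM with glutamine (replicates 1, 2 and 3, the order used throughout), against 29.6, 24.9 and 30.3 CPM without. Replicates 2 and 3 with glutamine were low, and replicate 1 of that group lay inside the range of the group without, so the groups overlapped. The log2 fold change was 1.58 (SE 1.06, adjusted p 0.342 by edgeR) with all libraries and 4.65 (SE 0.16, adjusted p 9.41e-08 by edgeR) without replicate 1 with glutamine. DESeq2 gave WNT4 no p-value.

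WNT2B and WNT5B were higher in every library without glutamine. WNT2B, a ligand of the canonical branch, was at 8.87, 6.97 and 7.48 CPM with glutamine, against 15.0, 15.1 and 15.8 CPM without. The log2 difference was 0.98 (SE 0.12, adjusted p 0.068 by edgeR), and leaving out replicate 1 with glutamine gave 1.08 (adjusted p 1.59e-05 by edgeR). All 3 libraries with glutamine were low for this gene, replicate 1 included. WNT5B, a close relative of WNT5A that mostly signals without beta-catenin, was at 21.2, 10.1 and 9.72 CPM with, against 29.3, 26.7 and 24.0 CPM without. Replicate 1 with glutamine lay between the other 2 of its group and the group without. Its log2 fold changes were 0.97 (SE 0.30, adjusted p 0.0977 by edgeR) with all libraries and 1.43 (adjusted p 5.83e-06 by edgeR) without that library. Each of these genes overlaps a coding gene on the opposite strand, ST7L for WNT2B and FBXL14 for WNT5B, and the strand setting of the counting is not given in the sources used here.

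WNT11 and WNT3A showed smaller differences. WNT11, a ligand of the branch that works without beta-catenin and known from the tips of the ureteric bud, was at 1.64, 1.27 and 1.12 CPM with, against 2.07, 2.57 and 2.32 CPM without glutamine. The groups did not overlap, and the log2 fold change was 0.78 (SE 0.19, adjusted p 0.0761 by edgeR). WNT3A, the canonical ligand of the tail bud, was at 2.99, 3.23 and 3.21 CPM with, against 6.61, 3.92 and 3.23 CPM without. Its groups were parted by less than the spread within the group without, in which replicate 1 was high. DESeq2 called WNT11 (adjusted p 0.00742) and did not call WNT3A (adjusted p 0.147). Leaving out replicate 1 with glutamine, the log2 fold change was 0.96 for WNT11 (adjusted p 0.0019 by edgeR) and 0.52 for WNT3A (adjusted p 0.146 by edgeR).

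Other ligands lay close together or were scarce. WNT5A, a ligand of the branch that works without beta-catenin, was at 86.8 ± 3.62 CPM in the absence of glutamine and at 83.7 ± 2.75 CPM in its presence (SD, n = 3), a log2 difference of 0.05 (SE 0.07). WNT3 had means of 9.39 and 9.52 CPM, WNT10B of 2.26 and 1.85 CPM and WNT1 of 2.00 and 2.88 CPM, with and without glutamine. WNT9A was at 2.06, 0.551 and 0.560 CPM with, against 2.09, 1.60 and 1.69 CPM without, the same arrangement as WNT4, with replicate 1 among the libraries without. Its log2 fold change was 0.76 with all libraries (adjusted p 0.322 by edgeR) and 1.70 without replicate 1 (adjusted p 0.000249 by edgeR). Below 1 CPM, WNT8A, a ligand of the primitive streak, was at 0.246, 0.602 and 0.624 CPM with, against 0.14, 0.18 and 0.14 CPM without, and DESeq2 called it lower (adjusted p 0.0153). The log2 fold change of WNT8A was -1.67 with all libraries and -1.99 without replicate 1 with glutamine (adjusted p 0.0784 and 0.000341 by edgeR).

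Ligands at the edge of detection included the signal of the ureteric bud. WNT9B had 2 to 8 counts in a library, which was under the count filter. WNT6 had 0 to 3 counts and WNT7A 1 to 4. WNT10A had 0 counts in every library, which allows at most 0.0349 to 0.0384 CPM (3 counts per library, counting error only). WNT2 had 0 and 1 counts in replicates 2 and 3 with glutamine and 0.173 CPM in replicate 1, against 0.255 to 0.408 CPM without glutamine. With all libraries edgeR did not call it (adjusted p 0.106), and without replicate 1 it did (adjusted p 0.000266). WNT7B, WNT8B and WNT16 stayed under 1 CPM in each library.

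Levels of different ligands were compared per length, as CPM per kilobase of annotated exon. The 19 ligands summed to 29.2, 21.9 and 21.6 CPM per kb in replicates 1, 2 and 3 with glutamine and to 37.6, 32.1 and 32.4 without. WNT5A made up 52.2% and 53.8% of that sum in replicates 2 and 3 with glutamine, 37.4% in replicate 1 and 32.4% to 36.4% without glutamine. WNT4 made up 1.32% and 0.964% in replicates 2 and 3 with, 19.7% in replicate 1 and 17.1% to 20.6% without. The CPM per kb of WNT5A itself stayed between 10.9 and 12.2 in all 6 libraries, so its smaller share went with more WNT4 and WNT5B.

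**Figure D2:**
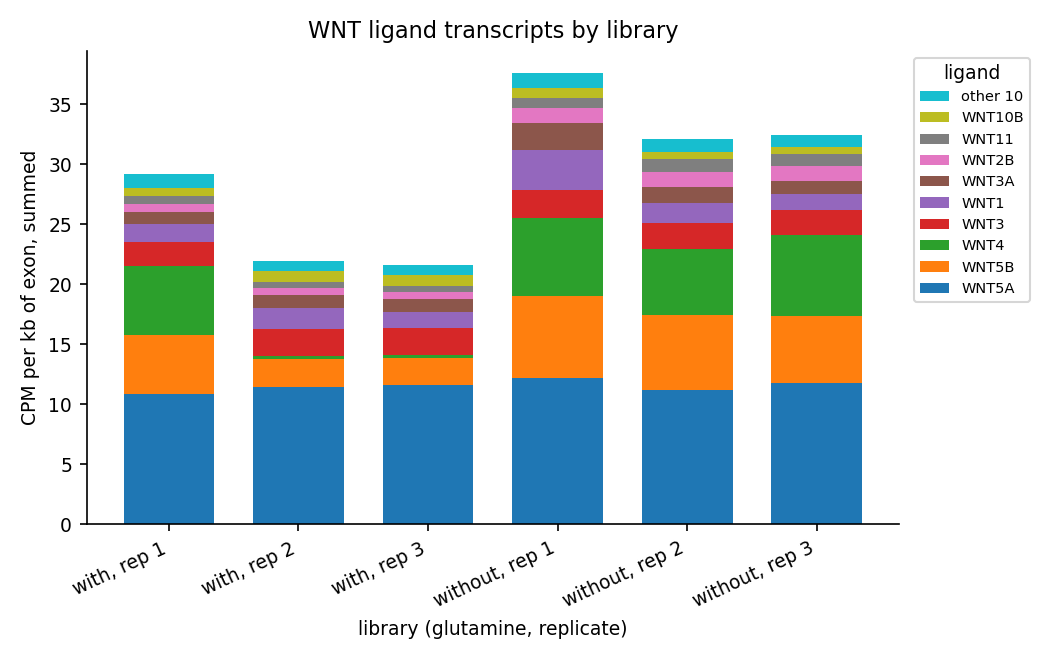
Stacked bars of WNT ligand level in each library, in CPM per kilobase of exon, with 9 ligands in their own colours and the other 10 summed. The WNT5A block is of similar height in all 6 bars, and the WNT4 block is thin in replicates 2 and 3 with glutamine, where it is 0.289 and 0.208 CPM per kb.

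Among the receptors, 4 frizzleds of modest level were higher without glutamine, with no overlap between groups. Of the 12 receptor genes the groups did not overlap for 5, 4 higher and 1 lower, or 41.7% against 34.2% of all genes. The median log2 fold change over the 12 was -0.04, with 5 higher and 7 lower. FZD1 was at 18.1, 11.3 and 11.1 CPM with, against 29.6, 30.3 and 28.0 CPM without. All libraries without glutamine were above replicate 1 with glutamine, which in turn was above the other 2 of its group. This gave a log2 fold change of 1.12 (SE 0.19, adjusted p 0.068 by edgeR), and it was 1.39 without that library (adjusted p 1.73e-06 by edgeR).

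FZD8, another WNT-binding receptor of this family, showed the same with little spread. It was at 22.1, 18.7 and 18.7 CPM with, against 33.0, 38.6 and 36.6 CPM without glutamine, a log2 fold change of 0.86 (SE 0.10, adjusted p 0.068 by edgeR). Its fold change moved little, to 0.95, when replicate 1 with glutamine was left out. FZD10 was at 18.2, 12.3 and 12.4 CPM with, against 31.4, 25.9 and 22.7 CPM without (log2 fold change 0.90, SE 0.19, adjusted p 0.0703 by edgeR). FZD5 was the scarcest of the 4, at 4.49, 1.43 and 1.51 CPM with, against 7.60, 8.70 and 6.75 CPM without (log2 fold change 1.63, SE 0.42, adjusted p 0.0781 by edgeR). In both, replicate 1 with glutamine was the highest of its group and lay below all libraries without. Leaving it out, the log2 fold change was 1.12 for FZD10 (adjusted p 0.000136 by edgeR) and 2.38 for FZD5 (adjusted p 3.42e-06 by edgeR). DESeq2 called FZD1, FZD5, FZD8 and FZD10, with adjusted p from 1.33e-08 to 0.000427.

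The abundant frizzleds did not part the groups. FZD7 had means of 268 and 265 CPM with and without glutamine, FZD3 of 153 and 146 CPM and FZD6 of 38.1 and 31.4 CPM. Per kilobase of exon FZD7 was the highest, at means of 69.5 CPM per kb with and 68.6 without glutamine, followed by FZD2 at 50.1 and 42.5 and FZD4 at 23.9 and 29.6. The order of FZD7, FZD2 and FZD4 held in each of the 6 libraries. FZD2 was at 79.7, 119.5 and 118 CPM with, against 104, 84.7 and 80.6 CPM without, so that replicate 1 with glutamine was the lowest of all 6 libraries. FZD4 was at 231, 149.6 and 149 CPM with, against 227, 216 and 212 CPM without, so that replicate 1 was the highest of all 6. Log2 fold changes were -0.24 for FZD2, 0.31 for FZD4, -0.28 for FZD6, -0.07 for FZD3 and -0.02 for FZD7, none of them called by edgeR or DESeq2 on all libraries. Without replicate 1 with glutamine they were -0.40 for FZD2, 0.55 for FZD4 and -0.44 for FZD6, each called by edgeR, and -0.05 for FZD3 and -0.13 for FZD7, not called. FZD9, the frizzled with the lowest fold change, had means of 2.62 ± 1.03 CPM with and 1.60 ± 0.360 CPM without (SD, n = 3). FZD4 and PRSS23 overlap on opposite strands. The 10 frizzleds summed to 160.3 to 187 CPM per kb with glutamine and 175 to 191 without, ranges that overlap.

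The 2 co-receptors were both expressed. LRP6, which with LRP5 carries the signal to the destruction complex, was at 215, 275 and 264 CPM with, against 206, 184 and 208 CPM without glutamine. The groups did not overlap, although replicate 1 with glutamine was only slightly above the highest library without. In log2 terms the difference was -0.33 (SE 0.11, adjusted p 0.105 by edgeR), and -0.43 without that library (adjusted p 0.00137 by edgeR). LRP5 had means of 99.7 and 93.3 CPM and overlapping groups. Leaving out replicate 1 with glutamine, 9 of the 12 receptor genes were called by edgeR, 5 higher and 4 lower, where that fit called 41.3% of all genes.

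In the R-spondin axis, RSPO3 was lower and LGR5 higher without glutamine, while RSPO4 and LGR4 lay close together. RSPO3 (ENSG00000146374), an R-spondin that amplifies WNT signals, was at 26.9, 59.0 and 62.6 CPM with glutamine, against 16.2, 15.4 and 17.5 CPM without. Every library without glutamine was below every library with it, and replicate 1 lay between. The log2 fold change was -1.60 (SE 0.30, adjusted p 0.068 by edgeR) and -1.89 without replicate 1 (adjusted p 2.46e-07 by edgeR). DESeq2 called RSPO3 (adjusted p 1.29e-06).

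LGR5 (ENSG00000139292), an R-spondin receptor and a marker of early nephron structures, was at 19.5, 2.71 and 2.74 CPM with, against 22.3, 32.3 and 30.2 CPM without. The groups did not overlap, yet replicate 1 with glutamine was far above the others of its group and just below the group without. The log2 difference was 1.76 (SE 0.73, adjusted p 0.162 by edgeR) with all libraries and 3.38 (SE 0.18, adjusted p 8.04e-07 by edgeR) without that library. LGR4, the related receptor, was the more abundant and had means of 156 ± 23.0 and 155 ± 12.7 CPM (SD, n = 3). RNF43, the ligase that R-spondins counteract, was at 4.68, 3.98 and 3.97 CPM with, against 6.43, 5.41 and 5.12 CPM without, a log2 fold change of 0.42 (SE 0.14, adjusted p 0.112 by edgeR), and of 0.51 without replicate 1 with glutamine (adjusted p 0.0118 by edgeR). RNF43 shares its strand and part of its span with SUPT4H1, which held 33974 counts over the 6 libraries against 2382 for RNF43, so its count is uncertain. RSPO4 had means of 4.5 and 4.26 CPM, RSPO1 stayed under 1 CPM and RSPO2 had 1 to 7 counts in a library.

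The level of ZNRF3, the partner of RNF43, could not be read from these counts. It had 3 to 23 counts in a library, 55 in all. Its annotated neighbours on chromosome 22, XBP1, C22orf31 and KREMEN1, had 0 counts in all 6 libraries, although XBP1 is a transcription factor of the secretory pathway that most cells express. The coding genes on either side of that stretch, CCDC117 and EMID1, had 3998 and 56710 counts. The stretch from XBP1 to KREMEN1 was looked at after these values were seen, and the same limit applies to KREMEN1, a DKK receptor. The cause of these counts was not tested.

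Among the secreted inhibitors SFRP2 had the highest mean level per kilobase of exon in both groups. With glutamine that rank rested on replicate 1, and in replicates 2 and 3 SFRP1 was slightly above SFRP2 per kilobase. SFRP2 (ENSG00000145423), a frizzled-related protein that binds WNTs outside the cell, was at 172, 54.0 and 54.9 CPM with glutamine, against 303, 288 and 254 CPM without. Every library without was above every library with, and replicate 1 with glutamine lay between. This gave a log2 fold change of 1.59 (SE 0.45, adjusted p 0.0856 by edgeR) with all libraries and 2.37 (SE 0.09, adjusted p 1.43e-07 by edgeR) without replicate 1. DESeq2 gave an adjusted p of 0.0545.

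SFRP1 differed the other way and by less. It was at 147, 135 and 131 CPM with, against 115, 103 and 121 CPM without, and here replicate 1 with glutamine was the library farthest from the other group. In log2 terms the difference was -0.29 (SE 0.08, adjusted p 0.0923 by edgeR), and -0.23 without that library (adjusted p 0.0388 by edgeR). By group mean per kilobase, SFRP2 was at 46.0 CPM per kb with and 139 without, and SFRP1 at 28.9 and 23.7.

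DKK1 and DKK2 bind LRP5 and LRP6 and keep them from the frizzled. DKK1 had means of 17.9 ± 14.9 CPM with and 35.7 ± 8.62 CPM without glutamine (SD, n = 3) and overlapping groups, and its values by library were added after they were seen. It was at 35.1, 8.10 and 10.5 CPM with, against 26.3, 43.1 and 37.7 CPM without. Replicate 1 with glutamine lay inside the range of the group without. The log2 fold change was 0.99 (SE 0.53, adjusted p 0.245 by edgeR) with all libraries and 1.94 (adjusted p 6.4e-05 by edgeR) without that library. DKK3, a more distant relative, was at 10.0, 4.62 and 5.37 CPM with, against 10.8, 11.8 and 11.2 CPM without, which parted the groups narrowly. The log2 difference was 0.76 (SE 0.27, adjusted p 0.129 by edgeR) with all libraries and 1.18 (adjusted p 2.85e-05 by edgeR) without replicate 1 with glutamine.

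DKK2 was lower in level than DKK1 and DKK3. It was at 0.702, 0.320 and 0.484 CPM with, against 0.930, 1.42 and 1.74 CPM without, with no overlap (log2 fold change 1.43, SE 0.35, adjusted p 0.0742 by edgeR), and the fold change was 1.75 without replicate 1 with glutamine (adjusted p 0.00265 by edgeR). DESeq2 called DKK2 (adjusted p 0.00249) and DKK3 (adjusted p 0.0305) and not DKK1 (adjusted p 0.305). NOTUM, an enzyme that strips the lipid from WNTs, had means of 8.03 ± 1.61 and 6.10 ± 1.61 CPM (SD, n = 3) and overlapping groups. WIF1 and SFRP4 stayed under 1 CPM, and DKK4 and SFRP5 had at most 2 and 7 counts in a library. With replicate 1 with glutamine left out, 7 of the 8 inhibitors tested were called by edgeR, 4 higher and 3 lower, beside 41.3% of all genes.

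The intracellular feedback and target genes did not share 1 direction. NKD1 (ENSG00000140807), which binds Dishevelled and is induced by WNT signals, was at 38.9, 97.8 and 103 CPM with glutamine, against 39.3, 26.1 and 29.4 CPM without. Replicate 1 with glutamine lay inside the range of the group without, and the other 2 were high. This gave a log2 fold change of -1.34 (SE 0.36, adjusted p 0.0812 by edgeR) with all libraries and -1.66 (adjusted p 1.66e-05 by edgeR) without that library, and DESeq2 called it on all libraries (adjusted p 0.0327).

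LEF1, which takes beta-catenin to its target genes, had the same arrangement with a smaller difference. It was at 75.5, 122 and 119 CPM with, against 81.6, 77.7 and 67.3 CPM without (log2 fold change -0.48, SE 0.18, adjusted p 0.141 by edgeR), and the fold change was -0.67 without replicate 1 with glutamine (adjusted p 0.00023 by edgeR). TCF7, of the same family, had the opposite sign, with 21.4 ± 5.59 CPM with and 26.7 ± 2.25 CPM without (SD, n = 3), and it overlaps SKP1 on the other strand, a gene with 90030 counts over the 6 libraries. AXIN2, the usual readout of beta-catenin activity and itself part of the destruction complex, was at 26.0, 33.2 and 36.2 CPM with, against 33.8, 27.1 and 26.7 CPM without. Its groups overlapped, and its log2 fold change was -0.12 (SE 0.15, adjusted p 0.598 by edgeR) with all libraries and -0.25 (adjusted p 0.0988 by edgeR) without replicate 1 with glutamine. AXIN2 was thus called in neither fit, while NKD1, LEF1 and TCF7 were called without that library, as were 41.3% of all genes.

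**Figure D3:**
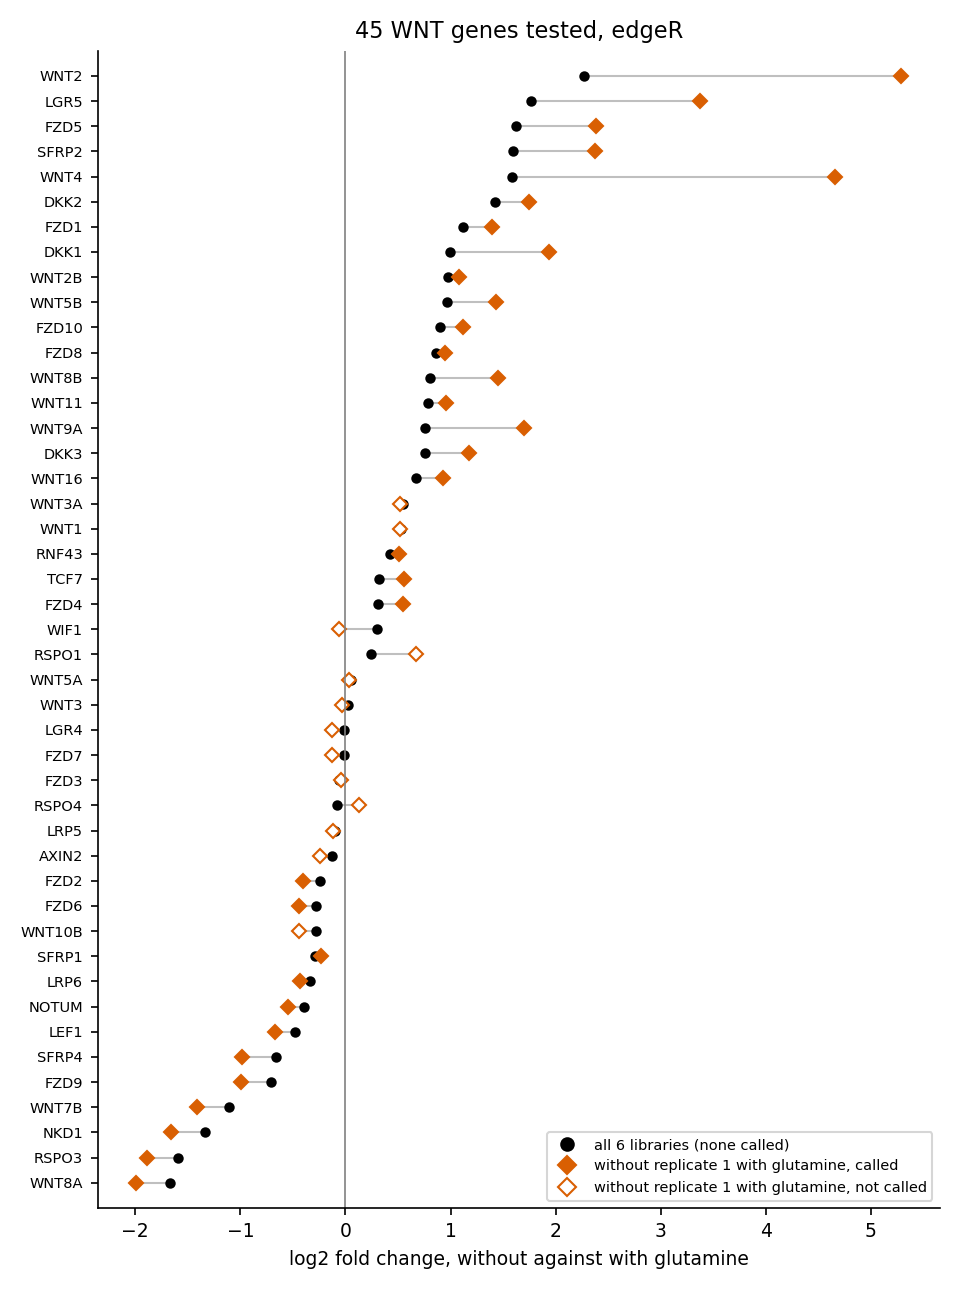
Log2 fold change without against with glutamine (x axis) of the 45 WNT members tested (y axis), by edgeR on all 6 libraries (black circles, 0 called) and without replicate 1 with glutamine (orange diamonds, filled where the adjusted p was under 0.05, 32 of the 46 members tested in that fit, ZNRF3 not drawn). The longest shifts are those of WNT4, from 1.58 to 4.65, and WNT2, from 2.27 to 5.29, while FZD8 and WNT2B hardly move.

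Replicate 1 with glutamine was placed, for each member, on a log2 scale that runs from the mean of replicates 2 and 3 with glutamine (0) to the mean of the group without (1). Of the 19 tested members that differed by at least 1 along that scale, it lay nearer the group without for 16, or 84.2%, beside 81.1% of all genes, so the members are near the background in this. Its position was 0.98 for WNT4, 1.0 for DKK1, 0.84 for LGR5 and 0.81 for NKD1. It was 0.70 for SFRP2, 0.62 for RSPO3, 0.50 for FZD1 and 0.27 for WNT2B. The members thus ranged from genes on which that library lay with the group without to genes on which it stayed closer to its own.

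The rest of the pathway was followed with 52 other genes grouped by role, chosen, like the members, with earlier results of these data known. On all 6 libraries edgeR tested 51 and called 0, with 19 at an unadjusted p under 0.05, beside 29.7% of all genes. The groups did not overlap for 16, or 31.4%, against 34.2% of all genes. Their median log2 fold change was 0.07. DESeq2 called 9, 7 higher and 2 lower, or 17.6% against 13.7% of all genes. Leaving out replicate 1 with glutamine, edgeR called 27, 17 higher and 10 lower, or 52.9% against 41.3%.

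The genes listed under beta-catenin and its destruction complex lay within a narrow range. They were CTNNB1, APC, AXIN1, GSK3A, GSK3B, CSNK1A1 and AMER1, with the linked genes TNKS, TNKS2, BTRC, DVL1, DVL2 and DVL3. Absolute log2 fold changes of the 13 genes were at most 0.33, the largest being that of TNKS, a tankyrase that marks AXIN proteins for destruction. TNKS was at 218, 256 and 232 CPM with, against 193, 180 and 188 CPM without glutamine (log2 fold change -0.33, SE 0.08, adjusted p 0.0732 by edgeR). CTNNB1, which encodes beta-catenin, had means of 932 ± 41.9 and 1056 ± 114 CPM (SD, n = 3), and GSK3B, the kinase that the protocol's first compound blocks, 220.2 and 203 CPM. Leaving out replicate 1 with glutamine, edgeR called 1 of these 13 genes, TNKS (log2 fold change -0.38), where it called 41.3% of all genes.

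Of the secretion genes WLS, which carries WNTs to the cell surface, had means of 150.4 and 158 CPM, and PORCN, which adds their lipid, 8.44 and 6.97 CPM, with no overlap (log2 fold change -0.28, adjusted p 0.115 by edgeR). Of the 11 nuclear factors the groups did not overlap for 2, or 18.2%, against 34.2% of all genes. These were TLE4, a co-repressor, and TCF7L1, a repressor of the TCF family. TLE4 had means of 74.7 and 89.7 CPM and TCF7L1 of 78 and 67.8 CPM, with and without glutamine. On all libraries edgeR called 0 of the 11. DESeq2 called 1, TLE1, a co-repressor (adjusted p 0.0475), or 9.09% against 13.7% of all genes. In the fit without replicate 1 with glutamine, edgeR called 7 of the 11, 5 higher and 2 lower, beside 41.3% of all genes.

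Modulators and polarity genes held the larger differences outside the members. The groups did not overlap for 7 of 14 co-receptors, co-factors and polarity genes and for 4 of 11 modulators tested, against 34.2% of all genes. Once replicate 1 with glutamine was left out, edgeR called 11 and 7 of them, against 41.3% of all genes. FRZB, a frizzled-related WNT inhibitor, was at 10.2, 11.4 and 11.8 CPM with, against 18.98, 32.4 and 39.9 CPM without. Replicate 1 with glutamine was the lowest library of all here, and the log2 fold change was 1.45 (SE 0.25, adjusted p 0.068 by edgeR). Leaving out replicate 1 of the group without glutamine, edgeR called FRZB (adjusted p 0.0311), as it did without replicate 1 with glutamine (log2 fold change 1.39, adjusted p 0.0019). SOST, an LRP inhibitor best known from bone, was at 1.27, 0.499 and 0.675 CPM with, against 2.55, 2.09 and 1.82 CPM without (log2 fold change 1.40, and 1.88 without replicate 1 with glutamine). DACT1, a Dishevelled-binding inhibitor, was at 106, 168 and 169 CPM with, against 101, 96.8 and 93.4 CPM without (log2 fold change -0.61, and -0.79 without replicate 1 with glutamine). Among the planar polarity genes PRICKLE1 had a log2 fold change of 0.64, PRICKLE2 of 0.58, CELSR3 of -0.31 and ROR2, a WNT5A receptor, of 0.30, each without overlap between groups. DESeq2 called FRZB, SOST, DACT1, PRICKLE1, PRICKLE2 and TNKS, with adjusted p from 6.23e-07 to 0.0326, and did not call CELSR3 or ROR2. LGR6, a further R-spondin receptor, and CER1, an inhibitor of WNT and Nodal, had larger fold changes but stayed under 1 CPM in every library and are outside the rule for named genes, added after their values were seen.

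**Figure D4:**
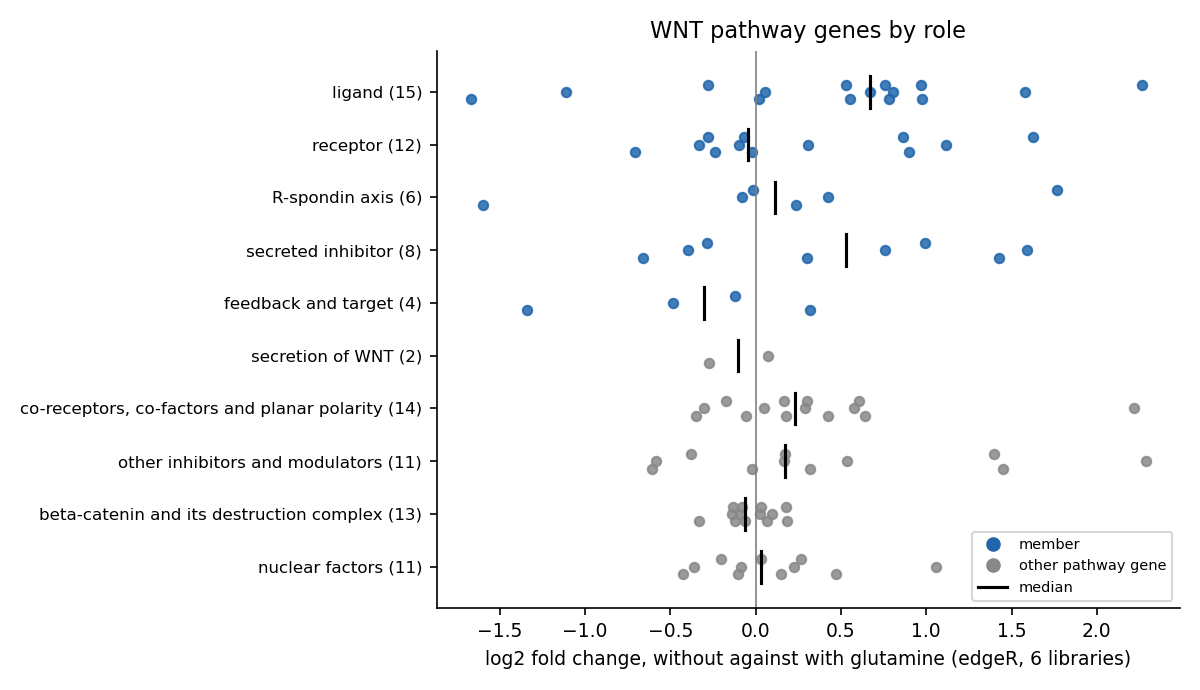
Log2 fold change without against with glutamine (x axis, edgeR on 6 libraries) of each tested WNT member (blue) and other pathway gene (grey), by role, with the number of genes in brackets and the median as a black bar. The 13 genes listed under beta-catenin and its destruction complex, with linked genes such as TNKS and DVL1, lie within 0.33 of 0. The 15 ligands have a median of 0.67 and the 8 secreted inhibitors of 0.53.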

How the data were processed

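RNA-seq counts of 6 libraries, 3 with and 3 without glutamine, were analysed. The authors deposited raw counts per Ensembl gene. The submitters' processing notes name cutadapt, Trim Galore, FastQC, STAR 2.5.2b, DESeq2 and GRCh38. The counting program, annotation release and strand setting are not given in the sources used here, so counts of overlapping and antisense genes are uncertain. Each sample's group and replicate came from its title. The deposited normalized counts were not used.

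Symbols, positions and exon lengths came from GENCODE 29 (56531 of 60107 IDs matched), promoter windows from RefSeq. The test was the quasi-likelihood F test of edgeR 4.0.16 in R 4.3.3, on the counts, with legacy = FALSE, filterByExpr and TMM, Benjamini-Hochberg adjustment over the 22613 genes kept, threshold 0.05. SE is the absolute log2 fold change divided by the square root of F. DESeq2 1.42.0 and limma-voom (limma 3.58.1) were alternatives, with other scalings and filters, edgeR's legacy and robust settings, a replicate block and each library left out. Log2 CPM used a prior count of 2. The tests were first run on simulated counts with known changes.

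Values by library are given for members with a mean of at least 1 CPM in a group and either no overlap or an absolute log2 fold change of at least 1. Those of WNT2, WNT8A, WNT9A, FZD2, FZD4, DKK1, LEF1 and AXIN2 were added after they were seen. Of the other pathway genes the rule names the 8 with the largest fold change among those without overlap and with at least 1 CPM in a group. Genes added from that list serve as examples of their role. The members, lists and rule were chosen with earlier results of these data known. The level of 1 marker gene and the summed level of its list are not reported here.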

Additional observations from a re-analysis of the deposited data

How the results depend on the processing

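Each result was recomputed under 16 alternatives, all planned. The count of genes called by edgeR, 1 with all libraries, was 0 under upper quartile scaling, library size only, the legacy setting, limma-voom and the replicate block, 2 with no filter and 3030 with DESeq2. The calls among WNT members went from 0 to 12 with DESeq2, and among the other pathway genes from 0 to 9. Leaving out 1 library gave 0 to 9573 called genes, 0 to 32 called members, 0 to 27 called pathway genes, 19 to 36 members without overlap and a median log2 fold change over members of 0.047 to 0.398. The highest of each came without replicate 1 with glutamine, and the lowest median without replicate 1 of the group without, a fit that called 17 genes, 1 of them a pathway gene, FRZB. The cause was not tested. Of 415 values of the 26 named genes, 0 reversed in sign, 43 went from not called to called and 372 did neither. All of these genes but WNT4 and NKD1 had no overlap between the groups, which was part of the naming rule. Their sign could hardly change under another scaling or with a library left out, so the 0 is no measure of stability. DESeq2 gave WNT4 no p-value, so WNT4 was left out of that alternative. The log2 fold change of WNT4 ran from 1.04 to 4.65 and that of LGR5 from 1.34 to 3.38, whereas that of FZD8 ran from 0.81 to 0.95 and that of WNT2B from 0.89 to 1.08. The largest shift of the all-gene median log2 fold change under another scaling was -0.04, with upper quartile scaling.

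The replicate numbers gave no sign of pairing. Deviations from the group means correlated at -0.021, 8.8e-05 and 0.028 between libraries of the same number, and 1 of 6 libraries correlated best with its own number. With the replicate block 0 members were called and the median log2 fold change of the members was 0.327. The count of members without overlap does not use the model, so the block could not change it from 19.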
